A study of Mus musculus with 21 samples.

Results

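Potassium channel genes are the mouse genes whose symbols start with Kcn, followed by the letters of a subfamily and a number. The counts table holds 98 symbols of this form, and 6 of them were left out: Kcnj8 and the antisense genes Kcnab3os, Kcnd3os, Kcnmb4os1, Kcnmb4os2 and Kcnq1ot1. The remaining 92 genes, out of 46517 genes in the table, comprised 40 pore-forming (alpha) subunits of the Kv type, 14 inward rectifiers, 14 two-pore channels, 8 calcium- or sodium-activated channels and 16 auxiliary subunits.

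Potassium channels repolarise the heart muscle cell after each action potential and hold its resting potential. Kv channels open upon depolarisation, inward rectifiers pass current best near and below the resting potential, two-pore channels carry background current, and the activated channels respond to intracellular calcium or sodium. Auxiliary subunits alter the gating or the transport of the pore-forming subunits, and in arterial smooth muscle cells outward potassium current opposes contraction.

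Gene expression was measured by RNA sequencing of frozen left ventricle from 4 control (Notch3+/+) and 3 Notch3-/- mice, all C57BL/6J and 10 to 14 months old; their sex is not given in the sources used here. The Notch3-/- allele carries the lacZ gene inserted into the Notch3 locus. Each mouse contributed 3 technical libraries, 21 libraries in all, and their counts were summed per mouse. The summed totals ranged from 3046326 to 4638786 counts in controls and from 3828763 to 5167869 in Notch3-/- mice.

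Notch3, the targeted gene, had 174, 200, 245 and 185 counts in the 4 control mice (numbered 1 to 4) and 22, 36 and 25 counts in the 3 Notch3-/- mice (numbered 1 to 3). All Notch3-/- mice lay below all control mice, as the labels require. On the log2 scale Notch3 fell by 3.16 ± 0.23 (SE) in Notch3-/- hearts (FDR 0.00173, quasi-likelihood test of edgeR, Benjamini-Hochberg adjusted over 14324 genes). The mean went from 54.7 ± 8.62 to 6.10 ± 1.42 CPM (counts per 1000000 counts of the library, scaled by the TMM method; mean ± SD, n = 4 and 3). With the mice whose labels start with k alone (2 control and 3 Notch3-/- mice) the log2 fold change was -3.29 with an adjusted p of 0.206, and with the level of hepatocyte marker genes as a covariate it was -3.38 with an adjusted p of 0.132, both from the same edgeR test; over all alternatives and tools its adjusted p ranged from 2.83e-27 to 0.206. In whole tissue, fewer cells of a type and less RNA per cell cannot be told apart, for Notch3 as for each gene described here.

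The samples expressed the markers of ventricular muscle. These 8 markers summed to 28632, 20902, 24236 and 27357 CPM in controls and 28580, 18814 and 20389 CPM in Notch3-/- mice. Ttn had the highest CPM of them, whereas per kb of exon Myh6 was highest in control mice (656, against 106 for Ttn). A pair of Notch3-/- samples also held liver-type transcripts. Hepatocyte markers (12 genes) summed to 49.7, 145, 12.2 and 24.4 CPM in controls and 5441, 9404 and 132 CPM in Notch3-/- mice, so that Notch3-/- mice 1 and 2 stood far above the rest. Alb was the most abundant of them, 0 of the 12 were at 0 in all mice, and all 11 tested had an unadjusted p under 0.05, although the smallest FDR was 0.118 (quasi-likelihood test of edgeR, Benjamini-Hochberg adjusted). Fits with the hepatocyte or the cardiomyocyte marker level as a covariate were run for the potassium channel values. The hepatocyte level, as mean log2 CPM, was 1.36, 2.70, 0.36 and 0.63 in controls and 8.47, 9.38 and 2.81 in Notch3-/- mice. It was higher in each Notch3-/- mouse than in each control mouse. Fold changes from that fit therefore can hardly be told apart from the covariate and are not liver-corrected effects. Scaling was also run without all genes over 4-fold higher in a Notch3-/- mouse than in the highest control mouse, of liver type or not. Leaving out Notch3-/- mice 1 and 2 was run as well.

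The pore-forming members share the codons of the selectivity filter, the stretch of the pore that lets potassium pass and holds back sodium. The motif ACNNTNGGNTNNGGN, in which N is any base, was searched in the reading frame of the coding strand, in the longest coding sequence of each gene (GENCODE vM21, build GRCm38). It occurred in 63 of the 76 pore-forming members (82.9%), in 0 of the 16 auxiliary subunits and in 125 of 21576 other protein-coding genes (0.579%). Two-pore subunits have a pair of pore domains, and 11 of the 14 two-pore genes had the motif 2 times, while no member of another class had it more than once. The following stretches of coding exon, 5′ to 3′ on the coding strand with the motif in capitals, are from a choice of members that are named in the results below. Where an intron lies within the stretch, the coordinates span it.
Kcnk3, match 1 (chr5:30588578-30621913, plus strand, spans an intron): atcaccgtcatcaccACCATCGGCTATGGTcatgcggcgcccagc
Kcnk3, match 2 (chr5:30622187-30622231, plus strand, within 1 exon): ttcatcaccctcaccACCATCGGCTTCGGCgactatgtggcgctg
Kcnk5, match 1 (chr14:20145100-20146522, minus strand, spans an intron): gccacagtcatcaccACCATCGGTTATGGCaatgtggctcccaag
Kcnk5, match 2 (chr14:20142456-20144677, minus strand, spans an intron): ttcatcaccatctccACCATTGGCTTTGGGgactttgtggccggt
Kcnq1 (chr7:143184540-143191461, plus strand, spans an intron): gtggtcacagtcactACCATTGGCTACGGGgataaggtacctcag
Kcna5 (chr6:126533730-126533774, minus strand, within 1 exon): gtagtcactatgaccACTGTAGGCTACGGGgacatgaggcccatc
Kcnd2 (chr6:21217391-21714156, plus strand, spans an intron): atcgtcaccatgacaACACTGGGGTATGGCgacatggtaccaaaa
Kcnj2 (chr11:111072192-111072236, plus strand, within 1 exon): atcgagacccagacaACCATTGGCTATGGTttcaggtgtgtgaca
Kcnj3 (chr2:55437612-55437656, plus strand, within 1 exon): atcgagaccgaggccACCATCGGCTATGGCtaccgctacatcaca
Kcnj5 (chr9:32322544-32322588, minus strand, within 1 exon): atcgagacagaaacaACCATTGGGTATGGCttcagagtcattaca
Kcnj11 (chr7:46099481-46099525, minus strand, within 1 exon): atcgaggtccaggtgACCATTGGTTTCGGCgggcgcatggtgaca

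The 13 pore-forming members without this motif were Kcnh1, Kcnh2, Kcnh3, Kcnh4, Kcnh6, Kcnh7, Kcnh8, Kcnj14, Kcnk1, Kcnk7 and the small-conductance genes Kcnn1 to Kcnn3. A shorter motif, NTNGGNTNNGGN, which is the longer motif without its leading codon, was present in 11 of these 13 members, in 0 auxiliary subunits and in 2264 of 21668 protein-coding genes (10.4%). Kcnh2 and Kcnj14 have agc and tcc in place of the leading codon of the motif, as these stretches with the shorter motif in capitals show. Kcnk1 and Kcnk7 had neither form.
Kcnh2 (chr5:24325540-24325584, minus strand, within 1 exon): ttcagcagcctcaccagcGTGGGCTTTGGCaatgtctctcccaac
Kcnj14 (chr7:45819618-45819662, minus strand, within 1 exon): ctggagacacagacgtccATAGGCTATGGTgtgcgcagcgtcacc

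Of the 92 members 83 had at least 1 count, 48 had a count in every mouse and 22 had 10 or more counts in every mouse. Levels were compared between genes as CPM per kb of exon, a quantity here called the level per kb. In control mice 9 members had a level per kb over 10 and 25 a level of at least 1. The highest was that of Kcnk3, which encodes the acid-sensitive background channel TASK-1, with 65.0 ± 9.30 per kb (mean ± SD, n = 4). Kcnip2, encoding the auxiliary subunit KChIP2 of the transient outward channel, followed with 45.0 ± 8.76 per kb. Kcnq1 and Kcnh2, the pore subunits of the slow and rapid delayed rectifiers, had 31.7 ± 3.27 and 31.0 ± 5.67 per kb.

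Kcnj5 (27.8 per kb), Kcng2 (21.1 per kb), Kcnj3 (16.3 per kb), Kcna5 (14.3 per kb) and Kcnj11 (11.1 per kb) completed the members with a mean level over 10 in control mice. The 15 highest members also held Kcnj14 (9.99 per kb), Kcnj2 (9.19 per kb), Kcnn1 (8.36 per kb), Kcnd2 (7.88 per kb), Kcnk1 (6.28 per kb) and Kcnn2 (6.24 per kb). These 15 genes made up 87.6% of the summed CPM of all members in controls and 88.1% in Notch3-/- mice. The 15 highest members of Notch3-/- mice shared 14 genes with those of control mice; Kcnj14 was at rank 10 in control and 18 in Notch3-/- mice.

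Most neighbours in this order were not separated by their spread between mice. Of the 14 neighbouring pairs among the 15 genes only 3 had the same order in all 7 mice: Kcnk3 above Kcnip2, Kcnip2 above Kcnq1, and Kcng2 above Kcnj3. Kcnh2 lay above Kcnj5 in 3 of 4 control mice and in 0 of 3 Notch3-/- mice. The order between Kcnj14 and Kcnj2 varied most, with a log2 ratio of -0.49 ± 2.15 (SD over control mice).

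**Figure D1:**
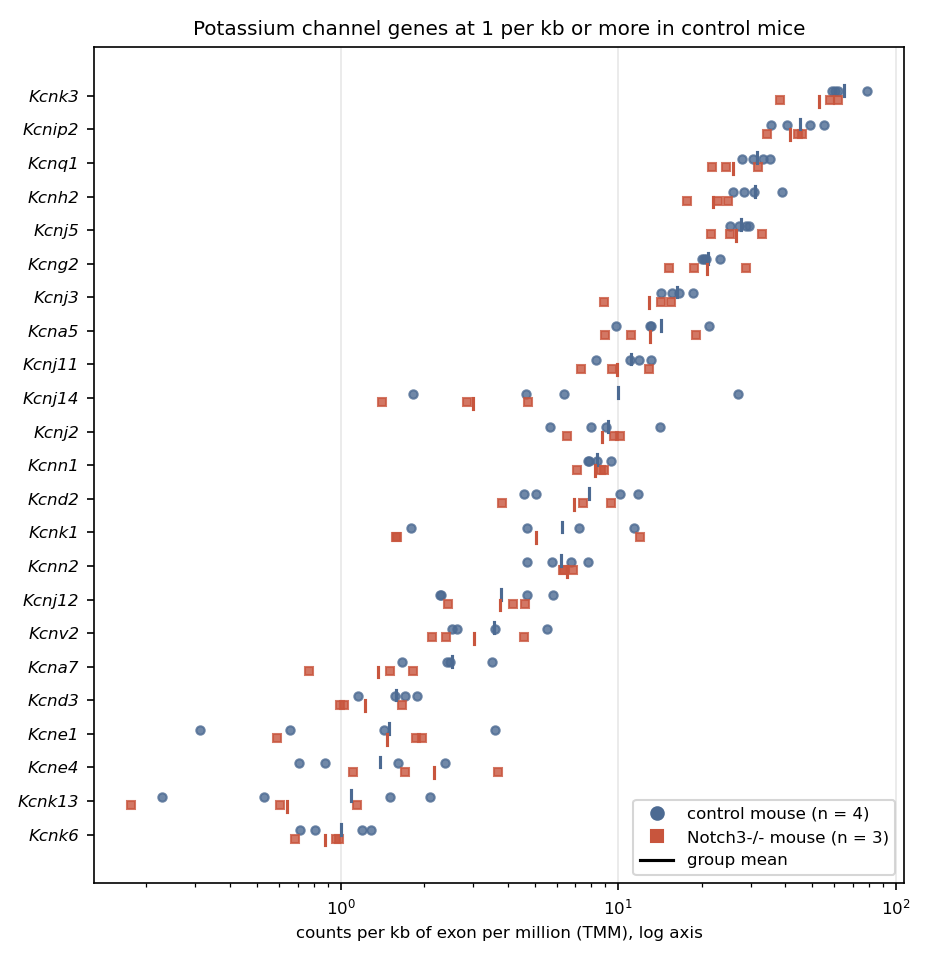
Level per kb (CPM per kb of exon, log axis) of 23 of the 25 potassium channel genes with a control mean of at least 1, in each control mouse (circles, n = 4) and each Notch3-/- mouse (squares, n = 3), with the group means as vertical ticks. Kcnk3 has the highest mean in both genotypes, and Kcnj14 and Kcnk1 have the widest spread between mice among the 15 highest genes.

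To find whether loss of Notch3 altered these genes, control and Notch3-/- mice were compared by the quasi-likelihood test of edgeR. Kcnh2, a gene of the delayed rectifier, had lower CPM in all Notch3-/- mice than in all control mice, and Kcnk5, a background channel gene, was high in a single Notch3-/- mouse, but neither passed the adjusted test. Counts allowed the test for 38 of the 92 members. None of the 38 was called at an FDR under 0.05 with a fold change of at least 1.5, against 1 of all 14324 genes tested (0.00698%), which was Notch3. DESeq2 called 0 of 83 members, against 593 of 28790 genes (2.06%). Limma-voom on the 21 libraries called 0 of 20 members, against 65 of 11193 genes (0.581%). Without Notch3-/- mouse 3, edgeR called 936 of 15008 genes (6.24%) and 2 of 40 members (5%; Kcna1 and Kcnk5); without any other mouse it called 1 gene and 0 members. An unadjusted p under 0.05 was found by edgeR for 3 members, and by DESeq2 and limma-voom for 5 each, or 6.02% of 83 and 25% of 20 tested members, against 6.7% and 13.3% of all genes. Lower in Notch3-/- mice by the unadjusted p of edgeR were 2 of 38, Kcnh2 among them (against 3.05% of all genes), and higher was Kcnk5 (1 of 38, against 7.34%). The mice of the groups did not overlap, with Notch3-/- lower, for 2 members, again with Kcnh2 among them (against 3.96% of all genes), and for 0 members with Notch3-/- higher (against 4.57%).

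The fold changes of the members lay mostly below 0. Of the 38 tested members 34 had a log2 fold change (Notch3-/- over control) under 0, or 89.5%, compared with 50.4% of all genes. Their median was -0.31, and that of all genes was -0.00. With other scaling factors the median of the same 38 members was -0.32 (RLE) and -0.30 (TMM without the genes over 4-fold higher in a Notch3-/- mouse). In DESeq2, which differs in tool, scaling and filter, it was -0.34 over 83 members. It was -0.14 with the hepatocyte marker level as a covariate, which can hardly be told apart from genotype, and -0.27 with the cardiomyocyte marker level. Leaving out Notch3-/- mice 1 and 2 together, the mice with the most hepatocyte marker counts, gave -0.17, an alternative chosen after seeing the data, in which the remaining Notch3-/- mouse is assumed to vary like the control mice.

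**Figure D2:**
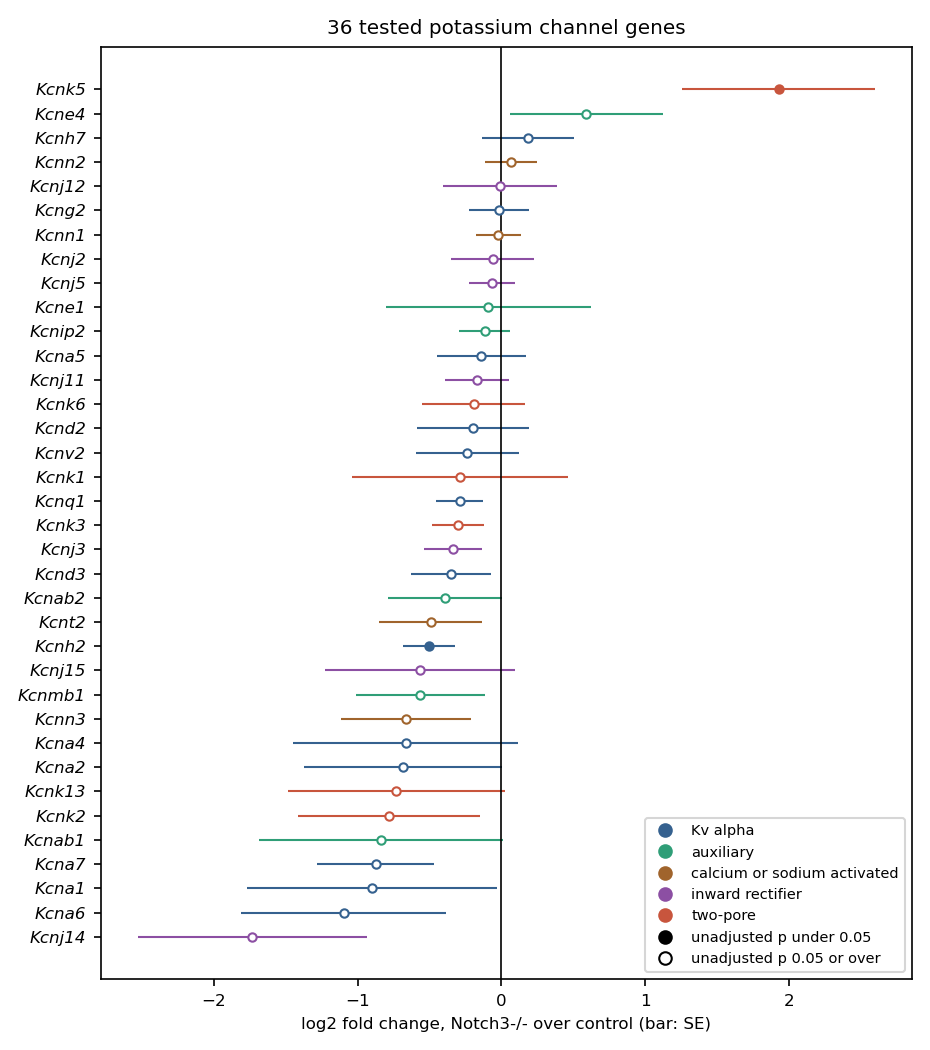
Log2 fold change (Notch3-/- over control; bars, SE) of 36 of the 38 tested potassium channel genes, coloured by class, with filled circles for an unadjusted p under 0.05 in edgeR's test. Of the 36 values 32 lie below 0, from -1.73 for Kcnj14 upward, and Kcnk5 lies highest at 1.93.

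Among the Notch3-/- mice, mouse 2 had the lowest values of the members. As log2 differences from the control mean, the medians of the 38 members were 0.18, 0.02, -0.07 and -0.09 in the 4 control mice, against -0.08, -0.47 and -0.11 in the 3 Notch3-/- mice. Notch3-/- mice 1 and 3 thus lay close to control mice 3 and 4, and Notch3-/- mouse 2 stood apart; without it the median log2 fold change of the members was -0.23. The same mouse had the lowest median of the 8 ventricular cardiomyocyte markers (-0.41; the other Notch3-/- mice 0.02 and -0.31, control mice 0.25, -0.29, -0.10 and 0.15). These markers had log2 fold changes under 0 for 8 of 8 genes, with a median of -0.22 and 0 genes called.

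When summed by class, the counts of all members gave 1519, 1520, 1316 and 1451 CPM in controls and 1303, 1006 and 1378 CPM in Notch3-/- mice. The groups overlapped, since Notch3-/- mouse 3 lay above control mouse 3, and Notch3-/- mouse 2 was lowest. The mean was 1452 ± 95.8 CPM in control (SD, n = 4) and 1229 ± 197 CPM in Notch3-/- mice (n = 3). Kv alpha subunits summed to 535 ± 75.5 and 431 ± 62.6 CPM, and inward rectifiers to 349 ± 20.7 and 298 ± 63.3 CPM. Two-pore channels summed to 287 ± 30.5 and 239 ± 42.0 CPM. The differences were smaller for auxiliary subunits (182 ± 31.3 and 165 ± 22.0 CPM) and for calcium- or sodium-activated channels (99.1 ± 10.2 and 95.2 ± 8.32 CPM).

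**Figure D3:**
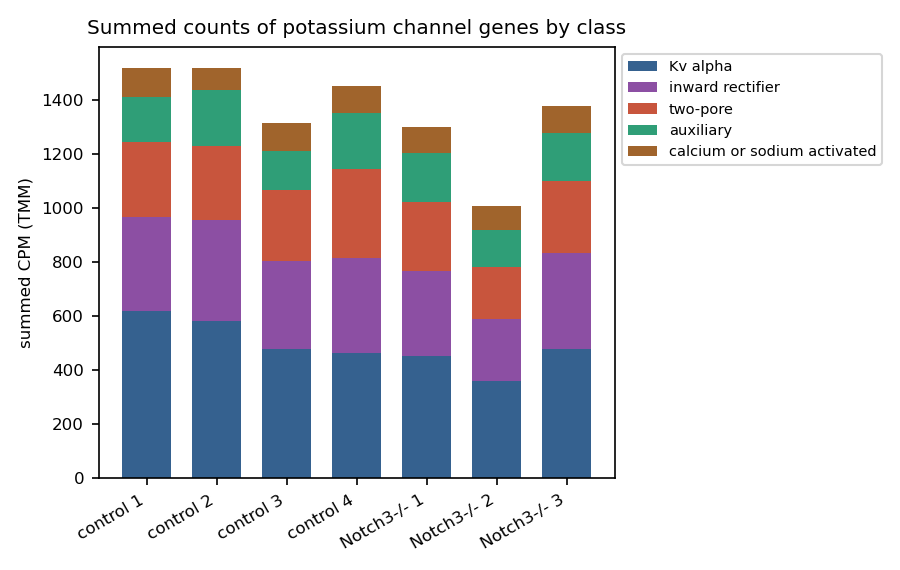
Summed CPM of the potassium channel genes in each mouse, stacked by class. The total is lowest in Notch3-/- mouse 2 (1006) and between 1303 and 1520 in the other mice, and Kv alpha subunits are the largest class in each mouse.

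Delayed rectifier channels end the plateau of the action potential. Kcnh2 (ENSMUSG00000038319, chr5:24319589-24351604, minus strand), which encodes the ERG channel of the rapid component, had 189, 149, 137 and 126 CPM in controls and 111, 86.0 and 120 CPM in Notch3-/- mice. All Notch3-/- mice were below all control mice, although the gap between control mouse 4 and Notch3-/- mouse 3 was small. The log2 fold change was -0.50 ± 0.18 (SE) and did not pass the adjusted test (FDR 0.361, quasi-likelihood test of edgeR, Benjamini-Hochberg adjusted); without control mouse 1 it was -0.37 and without Notch3-/- mouse 2 also -0.37. The unadjusted p, 0.019 with all mice, was 0.055 and 0.0537 in these fits. It was 0.312 with the hepatocyte covariate (log2 fold change -0.30), 0.0673 with the cardiomyocyte covariate (-0.42) and 0.148 with the k-labelled mice alone (-0.32). Without Notch3-/- mice 1 and 2 the log2 fold change was -0.32. DESeq2 gave an unadjusted p of 0.00721 (adjusted 0.145) with a log2 fold change of -0.51. Limma-voom on the libraries gave 0.000714 (adjusted 0.0672) with -0.50. Kcnh2 was well measured, with 378 to 706 counts in each mouse, and the SD between technical libraries of a mouse was 0.17 on the log2 scale.

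Kcnq1, the pore of the slow component, had 136, 144, 125 and 114 CPM in control and 100, 88.8 and 130 CPM in Notch3-/- mice. The groups overlapped, with Notch3-/- mouse 3 among the control mice, and the log2 fold change was -0.29 ± 0.16 (SE). It ran from -0.47 to -0.17 with each mouse left out, and was -0.01 with the hepatocyte covariate and -0.00 without Notch3-/- mice 1 and 2. Its antisense transcript Kcnq1ot1 shares 2.96% of the exon bases of Kcnq1 and had 552 to 957 counts per mouse, and reads from both strands cannot be told apart where counting does not use the strand. The KCNE subunits that pair with these pores were scarce. Kcne1 had 14, 55, 9 and 3 counts in control and 22, 30 and 10 counts in Notch3-/- mice, and the level of Kcnq1 per kb was from 9.77 to 89.0 times that of Kcne1 in control mice. For Kcne1 the log2 fold change was -0.09 ± 0.71 (SE), with 0.86 without control mouse 2 and 0.29 without Notch3-/- mouse 3. It was -2.38 with the hepatocyte covariate (unadjusted p 0.025). Kcne4, an inhibitory subunit, had 13, 30, 8 and 7 counts in control and 36, 14 and 24 counts in Notch3-/- mice, a log2 fold change of 0.59 ± 0.53 (SE) with overlapping groups. Without Notch3-/- mouse 1 it was 0.00. Kcne2 and Kcne3 had 1 and 4 counts over all mice, and Kcne1l had 19 in control and 3 in Notch3-/- mice.

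Summed per kb, the 7 genes of the delayed rectifier list gave 66.5 ± 9.63 in control and 51.7 ± 8.20 in Notch3-/- mice (mean ± SD of the summed level). Notch3-/- mouse 3 (58.9) lay above control mouse 4 (55.8), so that the groups overlapped. Of the 4 tested members 3 had a log2 fold change under 0.

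Channels of arterial smooth muscle were of interest because Notch3 acts in these cells. Kcnmb1, the beta subunit of the large-conductance channel in smooth muscle, had 6, 17, 17 and 8 counts in control and 10, 12 and 6 in Notch3-/- mice. The groups overlapped, with a log2 fold change of -0.56 ± 0.45 (SE), or -0.77 to -0.25 with each mouse left out and -1.52 with the hepatocyte covariate. Kcnma1, the pore of that channel, had 1, 3, 1 and 1 counts in controls and 0 in each Notch3-/- mouse, too few for a test. Kcnq5 had 2, 3, 4 and 0 counts in control and 1, 0 and 1 in Notch3-/- mice.

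Among the 7 vascular smooth muscle markers, Myh11, the myosin of smooth muscle, had 39.8, 20.4, 10.6 and 19.7 CPM in control and 3.28, 5.05 and 3.59 CPM in Notch3-/- mice, without overlap. Its log2 fold change was -2.49 ± 0.45 (SE) with an FDR of 0.118, and that of Tagln was -0.93 ± 0.35 (SE) with an FDR of 0.396 (quasi-likelihood test of edgeR, Benjamini-Hochberg adjusted). Of these 7 markers, 5 were tested, 2 (Myh11 and Tagln) had an unadjusted p under 0.05 and 0 were called; Smtn, which heart muscle also expresses, was the most abundant and none was at 0 in all mice. Of the 5 tested, 3 had a log2 fold change under 0 and 2 over 0, Acta2 with 0.15 ± 0.53 and Mylk with 0.24 ± 0.38 (SE). The summed CPM of the 7 markers was 758, 597, 546 and 629 in control and 693, 481 and 516 in Notch3-/- mice, with overlap.

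**Figure D4:**
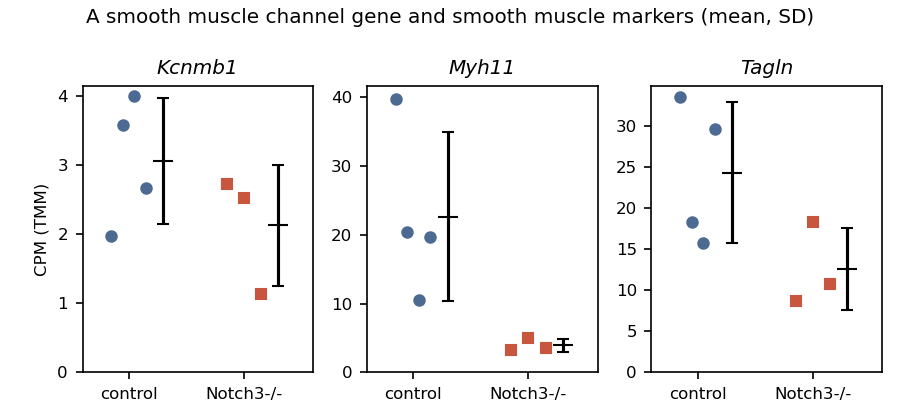
CPM of Kcnmb1, Myh11 and Tagln in each control (circles, n = 4) and Notch3-/- mouse (squares, n = 3), with mean and SD. Myh11 does not overlap between genotypes, whereas Kcnmb1 and Tagln do.

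Two-pore channels set the background conductance. Kcnk3 (ENSMUSG00000049265, chr5:30588170-30625271, plus strand) had 240, 246, 234 and 313 CPM in controls and 246, 152 and 230 CPM in Notch3-/- mice. Control mouse 4 was high and Notch3-/- mouse 2 low, with the other mice from both genotypes between 230 and 246. The log2 fold change was -0.30 ± 0.18 (SE), and -0.12 without Notch3-/- mouse 2 or -0.04 with the hepatocyte covariate.

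Kcnk5 (ENSMUSG00000023243, chr14:20140057-20181809, minus strand), which encodes the alkaline-activated channel TASK-2, had 11, 10, 16 and 5 counts in control and 17, 114 and 18 counts in Notch3-/- mice. The high value was that of Notch3-/- mouse 2 alone, where its technical libraries held 35, 19 and 60 counts, while Notch3-/- mouse 3 (3.40 CPM) lay within the control range of 1.67 to 3.76 CPM. The log2 fold change was 1.93 ± 0.67 (SE) with an FDR of 0.356 (quasi-likelihood test of edgeR, Benjamini-Hochberg adjusted). It was 0.51 without Notch3-/- mouse 2, and -0.17 with the hepatocyte covariate, which turned its direction. Without Notch3-/- mouse 3 it was 2.35 and passed (edgeR FDR 0.0473, where the adjusted p over all alternatives ranged up to 0.999). Notch3-/- mouse 2 was also the highest in hepatocyte markers (9404 CPM) and in the 6 skeletal muscle markers, which summed to 33.9 CPM there and to 0.334 to 2.27 CPM in the other mice. The most abundant of the latter was Tnnt3; the part of either tissue in Kcnk5 was not tested beyond the covariate.

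Kcnk1, encoding TWIK-1, had 77, 50, 69 and 12 counts in control and 13, 17 and 141 counts in Notch3-/- mice. Its values divided each genotype: control mice 1 to 3 and Notch3-/- mouse 3 were high, and control mouse 4 and Notch3-/- mice 1 and 2 were low. The log2 fold change of -0.29 ± 0.75 (SE) was -1.97 without Notch3-/- mouse 3 and turned to 0.14, 0.12 and 0.15 without control mouse 1, Notch3-/- mouse 1 and Notch3-/- mouse 2. Kcnk2, the stretch-sensitive TREK-1 gene, had 11, 20, 15 and 3 counts in control and 1, 12 and 13 counts in Notch3-/- mice, and Kcnk6 had 9, 16, 21 and 16 against 15, 19 and 15 counts. Both overlapped between genotypes, with log2 fold changes of -0.78 ± 0.63 and -0.19 ± 0.36 (SE). With each mouse left out in turn they ran from -1.09 to -0.34 and from -0.31 to -0.04. Kcnk1, Kcnk2, Kcnk3 and Kcnk6 together had a summed level of 72.9 ± 6.57 per kb in control and 58.9 ± 15.5 per kb in Notch3-/- mice, lowest in Notch3-/- mouse 2 (41.4 per kb).

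**Figure D5:**
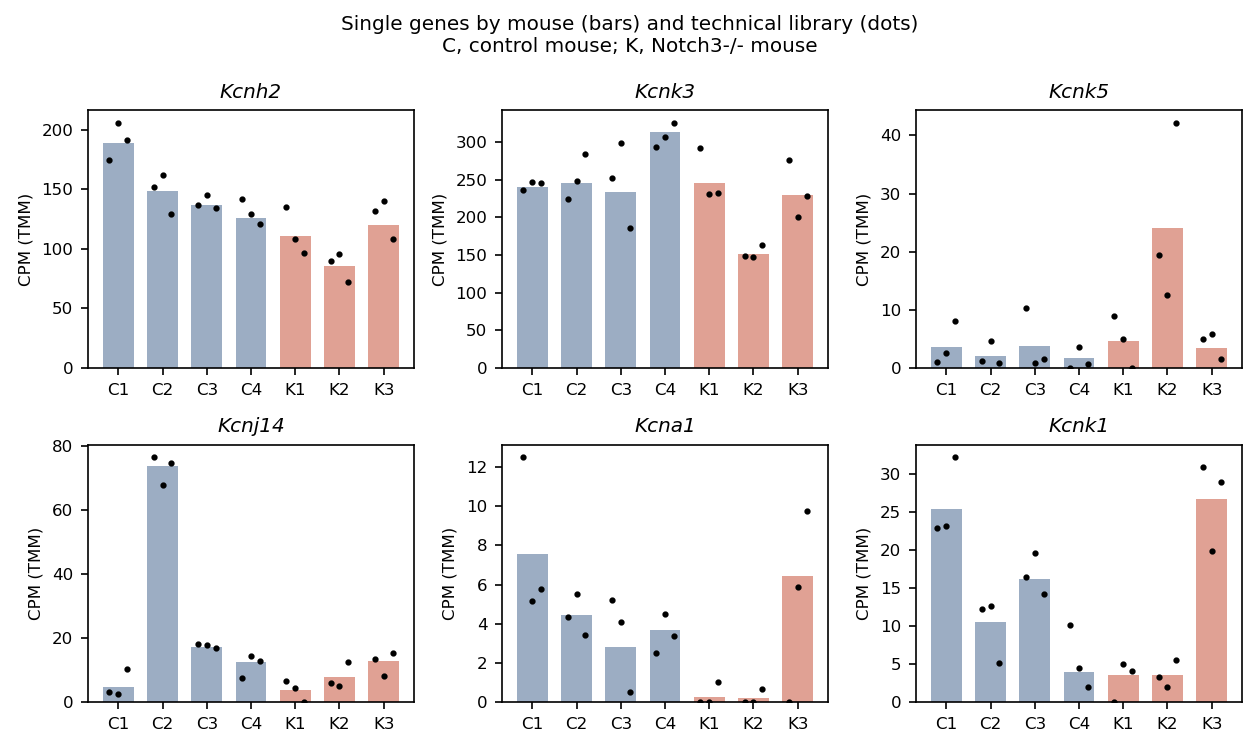
CPM of Kcnh2, Kcnk3, Kcnk5, Kcnj14, Kcna1 and Kcnk1 in control mice 1 to 4 (C) and Notch3-/- mice 1 to 3 (K); bars are mice and dots their technical libraries. A single mouse sets the group mean of Kcnk5 (Notch3-/- mouse 2) and of Kcnj14 (control mouse 2), and Notch3-/- mouse 3 differs from the other Notch3-/- mice in Kcna1 and Kcnk1.

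Fast repolarisation of the mouse ventricle rests on the transient outward current, carried by Kv4 channels with KChIP2. Kcnip2 had 141, 170, 123 and 192 CPM in control and 154, 119 and 159 CPM in Notch3-/- mice, and Kcnd2, the Kv4.2 pore, had 60.6, 52.3, 23.5 and 26.1 against 48.6, 19.6 and 38.6 CPM. Notch3-/- mice lay mostly within the control range for these genes, with log2 fold changes of -0.12 ± 0.18 and -0.19 ± 0.39 (SE). Among control mice Kcnd2 was high in mice 1 and 2, whose labels start with X, and low in mice 3 and 4, whose labels start with k. The X label occurs in control mice only, so that label and genotype cannot be told apart for these mice, and within the k label the log2 fold change of Kcnd2 was 0.52. It was 0.06 without control mouse 1 and 0.10 without Notch3-/- mouse 2, and that of Kcnip2 was 0.00 without Notch3-/- mouse 2.

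The level of Kcnd2 per kb was 4.91 ± 1.73 times that of Kcnd3, which encodes Kv4.3, in controls and 5.89 ± 3.12 times in Notch3-/- mice (mean ± SD of the ratio). KChIP2 transcripts exceeded those of its pore: Kcnip2 per kb over Kcnd2 per kb was 6.73 ± 3.31 in control and 6.62 ± 2.23 in Notch3-/- mice. Both ratios overlapped between genotypes. For Kcnd3 itself the log2 fold change was -0.35 ± 0.28 (SE), with -0.63 without Notch3-/- mouse 3, -0.22 without Notch3-/- mouse 1 and 0.12 with the hepatocyte covariate. Kcna4, the gene of Kv1.4, was low at 14, 2, 25 and 11 counts in control and 10, 2 and 19 counts in Notch3-/- mice. Together the 4 genes of the transient outward current had a summed level of 55.2 ± 9.17 per kb in control and 50.1 ± 9.35 per kb in Notch3-/- mice, with overlap.

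A slower outward current of the mouse ventricle flows through Kv1.5. Kcna5 (Kv1.5) had 28.0, 60.9, 37.4 and 37.7 CPM in control and 25.7, 54.5 and 31.8 CPM in Notch3-/- mice. Each genotype held a mouse well above the others, control mouse 2 and Notch3-/- mouse 2, and the log2 fold change was -0.14 ± 0.31 (SE), or 0.11 without control mouse 2 and 0.06 without Notch3-/- mouse 1. The Kv beta subunit genes Kcnab1 and Kcnab2 had at most 17 counts in a mouse and log2 fold changes of -0.84 ± 0.85 and -0.39 ± 0.40 (SE). That of Kcnab1 rests on single mice, with -3.31 without Notch3-/- mouse 2, -0.33 without Notch3-/- mouse 1 and -3.47 with the hepatocyte covariate. Kcnab2 had -0.16 without Notch3-/- mouse 1, -0.68 without Notch3-/- mouse 3 and -0.02 with that covariate.

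Strong inward rectifiers hold the resting potential. Kcnj2 (Kir2.1) had 76.7, 30.8, 43.3 and 49.4 CPM in control and 52.5, 35.5 and 55.4 CPM in Notch3-/- mice, which all lay within the control range. Kcnj12 (Kir2.2) was lower, with 3.77 ± 1.77 per kb against 9.19 ± 3.56 per kb of Kcnj2 in control mice, and the ratio of Kcnj2 to Kcnj12 varied from 1.21 to 6.19. Their log2 fold changes were -0.06 ± 0.29 and -0.01 ± 0.40 (SE). Leaving out 1 mouse turned the sign of these small values: that of Kcnj2 was 0.22 without control mouse 1 and 0.12 without Notch3-/- mouse 2. For Kcnj12 it was 0.12, 0.26 and 0.22 without control mouse 2, control mouse 4 and Notch3-/- mouse 2. Kcnj4 (Kir2.3) had 0 counts in controls and 3 in Notch3-/- mouse 3.

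Kcnj14 (Kir2.4; ENSMUSG00000058743, chr7:45816460-45824782, minus strand) showed the widest range between mice of the 15 highest members. Its counts were 15, 349, 74 and 38 in control and 14, 37 and 68 in Notch3-/- mice. The value of control mouse 2 was present in each of its technical libraries (176, 86 and 87 counts), and without that mouse the groups lay close. The log2 fold change of -1.73 ± 0.80 (SE) was the lowest of the members and did not pass the adjusted test (FDR 0.490, quasi-likelihood test of edgeR, Benjamini-Hochberg adjusted); without control mouse 2 it was -0.51. The summed level of the 4 strong inward rectifier genes, 23.0 ± 9.70 per kb in control and 15.6 ± 3.98 per kb in Notch3-/- mice, was likewise highest in control mouse 2 (37.4 per kb).

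Kcnj11, the pore of the ATP-sensitive channel, had 30.6, 40.7, 43.8 and 48.4 CPM in control and 47.3, 27.1 and 35.0 CPM in Notch3-/- mice, with overlap and a log2 fold change of -0.17 ± 0.22 (SE; 0.00 without Notch3-/- mouse 2). Its level was 11.1 ± 2.05 per kb in control and 9.92 ± 2.76 per kb in Notch3-/- mice. The sulfonylurea receptor Abcc9, its regulatory partner, was more abundant, and the ratio of Kcnj11 to Abcc9 per kb was 0.210 ± 0.0554 in control and 0.202 ± 0.0206 in Notch3-/- mice.

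The acetylcholine-activated channel, best known from the atrium and the sinus node, is formed by the products of Kcnj3 and Kcnj5. Kcnj5 had 135, 118, 128 and 139 CPM in control and 118, 101 and 154 CPM in Notch3-/- mice, with a log2 fold change of -0.06 ± 0.16 (SE), or 0.07 without Notch3-/- mouse 2. Kcnj3 had 86.6, 96.9, 81.2 and 74.5 CPM in control and 74.6, 46.3 and 80.9 CPM in Notch3-/- mice, with a log2 fold change of -0.34 ± 0.20 (SE), or -0.13 without Notch3-/- mouse 2 and -0.05 with the hepatocyte covariate. Notch3-/- mouse 2 was lowest for both genes and the groups overlapped. Exons of Kcnj3 share 31.1% of their bases with Gm26794 on the opposite strand, a non-coding gene with 54 to 101 counts per mouse, so that the counts of this pair are uncertain. The level of Kcnj3 and Kcnj5 together was 44.0 ± 1.12 per kb in control and 39.4 ± 9.06 per kb in Notch3-/- mice, in which it lay on either side of the control mice (39.4, 30.4 and 48.5).

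Most atrial markers were scarce beside these channel genes. Sln had 17, 7, 1 and 11 counts in control and 1, 1 and 0 in Notch3-/- mice, Myl7 had 4 to 20 counts per mouse, and Bmp10 was at 0 in 5 mice with 9 and 7 counts in Notch3-/- mice 2 and 3. The 6 atrial markers summed to 53.0, 42.8, 168 and 90.2 CPM in control and 64.8, 206 and 85.1 CPM in Notch3-/- mice, most of it Nppa, which the ventricle also expresses; 4 were tested and 0 called. Of these only Dkk3 had an unadjusted p under 0.05, with a log2 fold change of 1.00 ± 0.43 (SE), overlapping groups and an FDR of 0.478 (quasi-likelihood test of edgeR, Benjamini-Hochberg adjusted). Of the 7 conduction system markers, led by Tbx3, Isl1 was at 0 in all mice, and their sum was 49.1 ± 7.18 CPM in control and 52.5 ± 10.7 CPM in Notch3-/- mice. Per kb, Kcnj5 and Kcnj3 had means of 27.8 and 16.3 in control mice. Nppa lay higher with 81.8 per kb, and the other 5 atrial markers lay lower, from 0 to 4.92 per kb.

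Of the small-conductance calcium-activated channels Kcnn1 and Kcnn2 varied little between mice (SD 0.15 and 0.24 on the log2 scale, against a median of 0.47 over the tested members), and Kcnn3 more (0.56). Kcnn1 had 35.9, 35.8, 38.6 and 43.1 CPM in control and 39.9, 32.6 and 40.8 CPM in Notch3-/- mice, and Kcnn2 had 58.0, 35.0, 50.3 and 43.1 against 47.5, 47.3 and 51.2 CPM. The genotypes lay over each other for both genes, with log2 fold changes of -0.02 ± 0.15 and 0.07 ± 0.18 (SE). The sign of these values turned when 1 mouse was left out, to 0.04 and 0.08 for Kcnn1 without control mouse 4 and Notch3-/- mouse 2, and to -0.06 for Kcnn2 without control mouse 2. Kcnn3 was far lower (0.432 ± 0.163 per kb in control mice, against 6.24 ± 1.32 for Kcnn2), with a log2 fold change of -0.66 ± 0.45 (SE), or -0.95 to -0.34 with each mouse left out. Together these 3 genes had a summed level of 15.0 ± 1.28 per kb in control and 15.0 ± 1.30 per kb in Notch3-/- mice.

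Among the other genes with the largest differences, Kcna1 (Kv1.1; ENSMUSG00000047976, chr6:126640397-126646384, minus strand) had 23, 21, 12 and 11 counts in control and 1, 1 and 34 counts in Notch3-/- mice. On the CPM scale Notch3-/- mice 1 and 2 (0.273 and 0.21) were below all control mice, while Notch3-/- mouse 3 (6.43) lay within the control range of 2.82 to 7.57. The log2 fold change was -0.90 ± 0.87 (SE) over all mice and -4.10 without Notch3-/- mouse 3, where the gene fell in the adjusted test (FDR 0.0102, quasi-likelihood test of edgeR, Benjamini-Hochberg adjusted; up to 0.999 over all alternatives). It was 0.49 without Notch3-/- mice 1 and 2. Without Notch3-/- mouse 3, 10 of 40 members (25%) had an unadjusted p under 0.05, against 16.3% of all genes in the same fit; with all mice it was 7.89% of members and 10.4% of all genes.

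Kcna7 (Kv1.7) had 11, 25, 23 and 23 counts in control and 12, 8 and 21 counts in Notch3-/- mice. On the CPM scale Notch3-/- mouse 3 (3.97) lay above control mouse 1 (3.62), and the log2 fold change was -0.87 ± 0.41 (SE), or -1.17 to -0.58 with each mouse left out and -0.22 with the hepatocyte covariate. Kcna6 (Kv1.6) had 10, 16, 6 and 14 counts in control and 2, 16 and 2 in Notch3-/- mice, a log2 fold change of -1.10 ± 0.71 (SE). It was -2.72 without Notch3-/- mouse 2 and -3.49 with the hepatocyte covariate, and -0.62 without Notch3-/- mouse 3. Its exons share 39.6% of their bases with the antisense gene Gm26673, which had 0 to 12 counts per mouse, 12 of them in the same Notch3-/- mouse 2, and the pair cannot be told apart without strand.

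Kcng2, a modifier subunit of Kv channels, had 69.5, 60.1, 61.9 and 61.1 CPM in control and 86.4, 45.4 and 56 CPM in Notch3-/- mice. The Notch3-/- mice lay on either side of the control mice, and the log2 fold change was -0.02 ± 0.21 (SE), with values of 0.03, 0.17 and 0.05 without control mouse 1, Notch3-/- mouse 2 and Notch3-/- mouse 3. Kcnh7, a relative of the ERG gene, had 29, 36, 39 and 20 counts in control and 49, 29 and 47 counts in Notch3-/- mice, with a log2 fold change of 0.19 ± 0.32 (SE) that was -0.13 without Notch3-/- mouse 1.

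The 54 members that were not tested had at most 55 counts over all mice, and 9 of them had 0 counts in each mouse: Kcna10, Kcng3, Kcnk15, Kcnk16, Kcnk18, Kcnk9, Kcnmb2, Kcns2 and Kcnv1. A further 15 members had counts in control mice only and 3 in Notch3-/- mice only, with at most 6 counts each. A count of 0 allows up to 0.200 unscaled CPM over the 4 control mice and 0.213 over the 3 Notch3-/- mice (3 counts of the group's total), a limit that covers counting error only, since PCR copies were not told apart. Apart from Kcnma1, these genes had no more than 4 counts, and a difference was not detectable at this depth where the counts were at or under 3; those with 4 counts, Kcng1 and Kcnk10, had them in a single mouse.

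Kcnma1 had 6 counts in control mice, or 0.400 unscaled CPM, which is 1.88 times that limit for Notch3-/- mice. The 6 counts carry counting error of their own, so this ratio sets no lower bound on a difference. Outside the 38 tested genes, and chosen after their values were seen, Kcnip3 had 20, 11, 6 and 5 counts in control and 1, 4 and 3 in Notch3-/- mice, and Kcnt1 had 5, 3, 10 and 3 against 1, 1 and 0. Both were lower in all Notch3-/- mice on the CPM scale, for which no share over all untested genes was counted. Both were among the 5 of 83 members (6.02%) with an unadjusted p under 0.05 in DESeq2, against 6.7% of all genes. Kcnab3 lay the other way, with 0, 0, 3 and 0 counts in control and 6, 3 and 11 in Notch3-/- mice. Its groups overlapped on the CPM scale, and it had an unadjusted p under 0.05 in edgeR when each gene with a count was tested.

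Genes that act with the channels were examined as 4 lists, and 0 of their genes were called. Of 14 partner genes 10 were tested, and 1 had an unadjusted p under 0.05: Akap9, the scaffold that binds the slow delayed rectifier, with 102, 106, 110 and 93.8 CPM in control and 90.2, 87.1 and 71.1 CPM in Notch3-/- mice. The groups did not overlap, and the log2 fold change was -0.32 ± 0.14 (SE; FDR 0.478, quasi-likelihood test of edgeR, Benjamini-Hochberg adjusted). Abcc9 (-0.15 ± 0.14), Cav3 (-0.23 ± 0.19) and Ank2 (0.05 ± 0.17) had smaller log2 fold changes. Hcn3, a pacemaker channel gene, had 0, 1, 0 and 5 counts in control and 13, 167 and 3 in Notch3-/- mice, and its high value was, like that of Kcnk5, in Notch3-/- mouse 2.

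All 9 transcription factors of ventricular repolarisation were tested and 0 had an unadjusted p under 0.05 in edgeR's test; their median log2 fold change was -0.03. Tbx5 had -0.42 ± 0.19 (SE) and Hey2, a target of Notch signalling, -0.65 ± 0.43 (SE), while Irx4 and Nkx2-5 had -0.09 ± 0.32 and -0.03 ± 0.17. Of 17 genes of inward current 13 were tested, with a median of -0.16. Cacna1c, the pore gene of the L-type calcium current, had a log2 fold change of -0.22 ± 0.17 (SE).

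Of the 9 genes of pumps and cotransporters for potassium, all tested, Slc12a4 had 107, 123, 119 and 116 CPM in control and 138, 160 and 136 CPM in Notch3-/- mice. It was higher in all Notch3-/- mice, with a log2 fold change of 0.32 ± 0.13 (SE). It had an unadjusted p under 0.05 and an FDR of 0.426 (quasi-likelihood test of edgeR, Benjamini-Hochberg adjusted). Slc12a7 and Slc12a2 had log2 fold changes of 0.08 ± 0.14 and -0.17 ± 0.23, and Fxyd1 of -0.20 ± 0.16 (SE).

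The other marker lists describe the tissue. Pericyte, endothelial, fibroblast, macrophage, neuron and adipocyte lists held 0 called genes in the edgeR test, and an unadjusted p under 0.05 was found for 3 pericyte and 3 fibroblast markers and for 0 of the other lists. Endothelial markers summed to 875 ± 148 CPM in control and 1002 ± 37.9 CPM in Notch3-/- mice. Kdr had the highest CPM of them over all mice, though not per kb of exon (23.3 in control mice, against 34.5 for Tie1). Pericyte markers summed to 1175 ± 59.1 and 1291 ± 304 CPM. The pericyte sum was higher in Notch3-/- mice through Vtn (58.9 and 349 CPM), and 4 of the 6 genes had a log2 fold change under 0. Among them Rgs5, the most abundant, had a log2 fold change that was -0.34 ± 0.10 (SE; FDR 0.249), without overlap between groups, while Vtn, which liver also makes, had 2.57 ± 0.61 (SE; FDR 0.168), and Cspg4, also without overlap, had -0.63 ± 0.21 (SE; FDR 0.339; all from quasi-likelihood test of edgeR, Benjamini-Hochberg adjusted). Fibroblast markers, led by Dcn, summed to 1118 ± 97.8 and 1305 ± 159 CPM. The genes differed in direction: Dcn was lower in all Notch3-/- mice than in all control mice (-0.26 ± 0.11), while Col3a1 (0.79 ± 0.16) and Col1a1 (0.62 ± 0.16) were higher in all (log2 fold change ± SE). These had an FDR of 0.476, 0.126 and 0.2 (quasi-likelihood test of edgeR, Benjamini-Hochberg adjusted). Macrophage markers, led by Lyz2, summed to 471 ± 46.4 and 507 ± 26.9 CPM. Neuron and Schwann cell markers summed to 23.8 ± 6.43 and 15.4 ± 3.43 CPM, and adipocyte markers, nearly all Fabp4, to 259 ± 44.1 and 223 ± 5.74 CPM.

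The precision of single genes followed their abundance. Among the 15 highest members the median SD on the log2 scale was 0.24 between technical libraries of a mouse and 0.30 between mice of a genotype. Among the other 23 tested members these were 0.67 and 0.59. The SD between libraries was taken over single libraries and that between mice over the summed counts of 3 libraries. They thus differ in depth and cannot be compared directly. Exon bases shared with another gene were found for 28 members, for 26 of them on the opposite strand, and they made up at least 10% of the exon bases in 7 members, of which Kcnj3 was the only abundant one.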

How the data were processed

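The counts are the deposited whole numbers of reads per Ensembl gene and library, which the authors made on build mm10 after base calling with CASAVA. The libraries held full-length cDNA from polyadenylated RNA, amplified over 22 PCR cycles without molecular identifiers and read from a single end over 51 bases. The aligner, the counting program, the use of strand and the handling of duplicates are not given in the sources used here. ERCC sequences (92, with 34 counts) were left out, and exon lengths, coordinates and overlaps came from GENCODE vM21, which holds 46005 of the gene identifiers and lacks 512.

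The 3 technical libraries of each mouse were summed. Single libraries had 464390 to 2134368 counts in control mice (median 1196276, n = 12) and 979804 to 2427783 in Notch3-/- mice (median 1583662, n = 9). Genes were tested with edgeR 4.0.16 (filterByExpr, TMM factors, quasi-likelihood F test, no term besides genotype) in R 4.3.3, with Benjamini-Hochberg adjustment over 14324 genes, and called at an FDR under 0.05 with no less than 1.5-fold change. The study used DESeq2 on collapsed technical replicates with the same thresholds. DESeq2 1.42.0 and limma 3.58.1 were the other tools here; tables and plots were made with Python 3.11.15, pandas 2.3.3, numpy 2.4.6, scipy 1.17.1 and matplotlib 3.10.9, and the fits were tested on simulated data. Medians, sums and levels per kb (1000 bases of exon) are descriptions.

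Named genes were the members of 9 lists of cardiac currents, the 15 members with the highest level per kb in control mice, each member with an unadjusted p under 0.05, the 5 largest and 5 smallest log2 fold changes, marker genes of the lists, partner genes with an unadjusted p under 0.05 and 2 to 4 others per partner list. Some of these genes are not reported here, and the single-gene figures, alternatives and flagged values leave them out. Members and lists were chosen with earlier results of these data known. Kcne5 is listed as Kcne1l in the annotation.

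The alternatives were DESeq2, RLE factors, each gene with at least 1 count, and a filter of 10 or more counts per mouse. Further ones were leaving out 1 mouse at a time, the k-labelled mice alone, and hepatocyte or cardiomyocyte marker level as a covariate. Others were limma-voom on the 21 libraries with mouse as a random effect, and 1 technical library per mouse. Counts thinned to the smallest total of 3046326, and no fold threshold, were also used. Another used TMM factors without 3398 genes over 4-fold higher in a Notch3-/- mouse than in the highest control mouse. No liver criterion entered that choice, which also took in Kcnk5 (highest 24 against 3.76 CPM) and Tnnt3 (14.5 against 0.706 CPM). Leaving out Notch3-/- mice 1 and 2 together was added after seeing the data. Limits from a count of 0 cover counting error only, because PCR reads without molecular identifiers are not independent molecules.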

Additional observations from a re-analysis of the deposited data

Results flagged for a closer look

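Of 49 values examined among the 4 control mice, 2 had a highest mouse far from the others, judged by its gap to the nearest mouse relative to the whole range; chance gives about 1 in 20. Kcnk3 had 313 CPM in control mouse 4, against 240, 246 and 234 CPM in the other control mice. The fibroblast markers summed to 1263 CPM in control mouse 1, against 1089, 1063 and 1058 CPM. No mouse was left out for these values, and their cause was not tested.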

How the results depend on the processing

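Potassium channel genes called stayed at 0 in each alternative except without Notch3-/- mouse 3, with a range of 0 to 2 over the mice left out. Members with an unadjusted p under 0.05 numbered 3 with edgeR, 5 with DESeq2, 9 with each gene of at least 1 count tested, 1 with the k-labelled mice alone, 5 with limma-voom on the libraries and 5 with its block for the technical number, and 3 to 10 with each mouse left out. With each gene tested these were 10.8% of members against 8.42% of all genes, and with the k-labelled mice 2.56% against 6.38%. With the block they were 25% against 12.9%. Without any mouse other than Notch3-/- mouse 3 they ran from 7.14% to 10.5% of members, against 6.51% to 10.9% of all genes. All genes called numbered 1 with edgeR, 593 with DESeq2, 639 with each gene tested, 0 with the k-labelled mice alone, 0 with the hepatocyte covariate, 65 and 62 with limma-voom without and with the block, 48, 39 and 77 with technical library 1, 2 or 3 alone, and 1 to 936 with each mouse left out. The cause was not tested.

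The median log2 fold change of the tested members was under 0 in each alternative run. It moved by more than its spread between mice (0.17 SD) only to reach -0.14 with the hepatocyte covariate, and it lay between -0.37 and -0.23 with each mouse left out. The 15 members with the highest level per kb shared 15 of 15 genes under each alternative that changes levels. Scaling factors multiply all genes of a mouse alike, so they leave the order within a mouse as it was and could hardly change this set.

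Of 707 single-gene log2 fold changes under 22 other settings, 621 had the direction of the value reported and 86 had the other, in 21 genes; 16 genes, Notch3 and Kcnh2 among them, kept their direction throughout. Without Notch3-/- mice 1 and 2 together, chosen after seeing the data, in which the lone Notch3-/- mouse is assumed to vary like the control mice, the sign turned for Kcna1 (0.49), Kcna4 (0.01), Kcnab2 (0.01), Kcnd3 (0.08), Kcnip2 (0.03), Kcnj12 (0.29), Kcnj2 (0.16), Kcnj5 (0.25), Kcnk1 (0.93), Kcnn1 (0.09) and Kcnv2 (0.34). With the k-labelled mice alone, which are fewer mice, it turned for Kcna2 (0.13), Kcnd2 (0.52), Kcne1 (1.53), Kcng2 (0.02), Kcnj2 (0.04), Kcnk1 (0.15) and Kcnv2 (0.24). The hepatocyte covariate turned it for Kcna1 (0.94), Kcna4 (1.04), Kcnd3 (0.12), Kcne4 (-0.04), Kcnip2 (0.04), Kcnj12 (0.32), Kcnj2 (0.38), Kcnj5 (0.38), Kcnk1 (1.37), Kcnk5 (-0.17), Kcnn1 (0.19) and Kcnv2 (0.16). The cardiomyocyte covariate did so for Kcna2 (0.19), Kcng2 (0.15), Kcnj12 (0.02), Kcnj2 (0.32) and Kcnn1 (0.03). In limma-voom on the libraries these were Kcnj12 (0.04), Kcnj2 (0.03) and Kcnn1 (0.01). Adding a block for the technical number, although libraries of the same number did not pair (median correlation 0.0146 over 36 pairs), gave Kcnj12 (0.04), Kcnj2 (0.01) and Kcnn1 (0.00). Technical library 1 alone, with fewer counts, gave Kcnd3 (0.15), Kcnh7 (-0.39), Kcnip2 (0.02), Kcnj12 (0.26) and Kcnj2 (0.06), technical library 2 alone gave Kcnd2 (0.35), Kcng2 (0.16), Kcnj2 (0.42) and Kcnj5 (0.11), and technical library 3 alone gave Kcnh7 (-0.22), Kcnj12 (0.07), Kcnj5 (0.14), Kcnk1 (0.13), Kcnn1 (0.13), Kcnn2 (-0.17) and Kcnv2 (0.37). Thinned counts gave Kcne1 (0.19), Kcnj12 (0.07) and Kcnj2 (0.03). With each mouse left out, the ranges that crossed 0 were Kcna2 -1.03 to 0.23, Kcna5 -0.52 to 0.11, Kcnd2 -0.48 to 0.10, Kcne1 -0.40 to 0.86, Kcng2 -0.31 to 0.17, Kcnh7 -0.13 to 0.42, Kcnip2 -0.23 to 0.00, Kcnj11 -0.40 to 0.00, Kcnj12 -0.20 to 0.26, Kcnj2 -0.24 to 0.22, Kcnj5 -0.26 to 0.07, Kcnk1 -1.97 to 0.15, Kcnn1 -0.09 to 0.08, Kcnn2 -0.06 to 0.19 and Kcnv2 -0.67 to 0.06. The causes were not tested.

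The filter on counts left low members untested: 45 untested members had counts, at most 55 over all mice.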
